A study of Homo sapiens with 4 samples.

Results

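The genes described here are 10 genes of the epithelial-mesenchymal transition, chosen by name from the 26475 gene symbols of the count tables: CDH1, CDH3, VIM, FN1, ZEB1, ZEB2, SNAI1, SNAI2, TWIST1 and ESRP1. They were measured by RNA-seq in mammospheres of MDA-MB-468 cells, a long-established line of basal-like triple-negative breast cancer (TNBC). Mammospheres are floating colonies grown in medium and plates that do not let cells attach. There were 4 libraries, 1 for each condition and none with a replicate. The cells of the CTL pool carried a control guide, and those of the gRNA2 pool a guide against TCOF1, the gene of the nucleolar protein treacle. By the study's methods, both pools carried spCas9 with mCherry and an inducible guide with eGFP and were sorted for both colours. Each pool was sequenced without doxycycline (CTL and gRNA2, labelled wild type and untreated) and with it (CTL+dox, labelled wild type, and gRNA2+dox, labelled as the TCOF1 knockout). The plates of a condition were pooled.

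In an epithelial-mesenchymal transition, epithelial cells give up their cadherin junctions and polarity and take on the motile form and matrix of mesenchymal cells. The zinc finger factors of the SNAI and ZEB families and the TWIST proteins drive it. They bind E-box sequences, through which SNAI and ZEB proteins repress CDH1 and other epithelial genes. Many carcinoma cells hold genes of both states together, and basal-like breast cancer lines can express vimentin and P-cadherin beside E-cadherin.

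The 4 libraries held between 19960644 reads on genes in CTL and 26322847 in gRNA2. The targeted gene, TCOF1, had 1019 reads from CTL, 754 from CTL+dox, 1318 from gRNA2 and 437 from gRNA2+dox. It was lowest in gRNA2+dox, with a log2 fold change of -1.34 against gRNA2, or 2.53-fold lower, and -0.74 against CTL+dox (-0.92 to -0.57). The value of CTL+dox against CTL was -0.58 (-0.71 to -0.44). Levels below are counts per 1000000 reads (CPM) of the TMM-scaled library size, and CPM per kilobase of the canonical transcript where genes are set beside each other. Every interval is a 95% interval from the reads alone. It is exact, except for a difference between doxycycline ratios, where it is a normal approximation that is rough at low counts. It covers counting error only, and with 1 library a condition no difference between cultures could be tested.

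The markers were those of an epithelial line with little RNA of the hormone and HER2 receptors. The 8 epithelial markers, EPCAM and the keratins among them, summed to between 19075 CPM in CTL and 20707 CPM in gRNA2+dox, and each had more than 3 reads in every library. Oestrogen, progesterone and HER2 receptor genes summed to 13.0 to 15.0 CPM. Of 10 fibroblast markers, COL3A1, DCN, LUM, THY1 and POSTN had at most 3 reads in every library, and the 10 summed to between 20.2 CPM in CTL+dox and 27.0 CPM in gRNA2+dox. PTPRC and CD3E of the 8 white blood cell markers and CDH5 of the 5 endothelial markers were also at 3 reads or fewer in every library. The 8 white blood cell markers summed to 106 CPM in CTL to 127 CPM in gRNA2, and the 5 endothelial markers to 13.8 CPM in gRNA2 to 16.5 CPM in gRNA2+dox.

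The 10 genes fell into 3 ranges of level. FN1, ESRP1, CDH1, CDH3, VIM and SNAI1 had at least 304 reads in every library. TWIST1 had 2 to 27 reads. ZEB1, SNAI2 and ZEB2 had at most 9, 5 and 1 reads in any library and did not reach the 10 reads in at least 1 library that a gene needed to enter the comparisons, so 7 of the 10 genes entered them, with 15204 genes in all. Per kilobase, FN1 stood highest, from 179 CPM per kilobase in CTL to 229 in gRNA2+dox, above 97.5% to 98.1% of the genes with reads and a length. ESRP1 came next with 51.3 to 54.7, then CDH1 with 41.6 to 48.5, CDH3 with 17.5 to 18.4, VIM with 11.9 to 19.0, SNAI1 with 7.92 to 10.5 and TWIST1 with 0.0562 to 0.735. The intervals of ESRP1 and CDH1 did not overlap in any library. CDH3 and VIM were the only neighbours among the first 6 genes in this order whose places changed: in CTL+dox VIM had 19.0 CPM per kilobase (17.8 to 20.3) and CDH3 17.5 (16.7 to 18.3), so that their intervals overlapped, while in the other 3 libraries CDH3 was above VIM with intervals apart. This order of CDH3 and VIM depends on VIM reads set aside in the counting, as described below. With those reads added, VIM had 20.6 to 35.2 CPM per kilobase and was above CDH3 in every library.

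**Figure D1:**
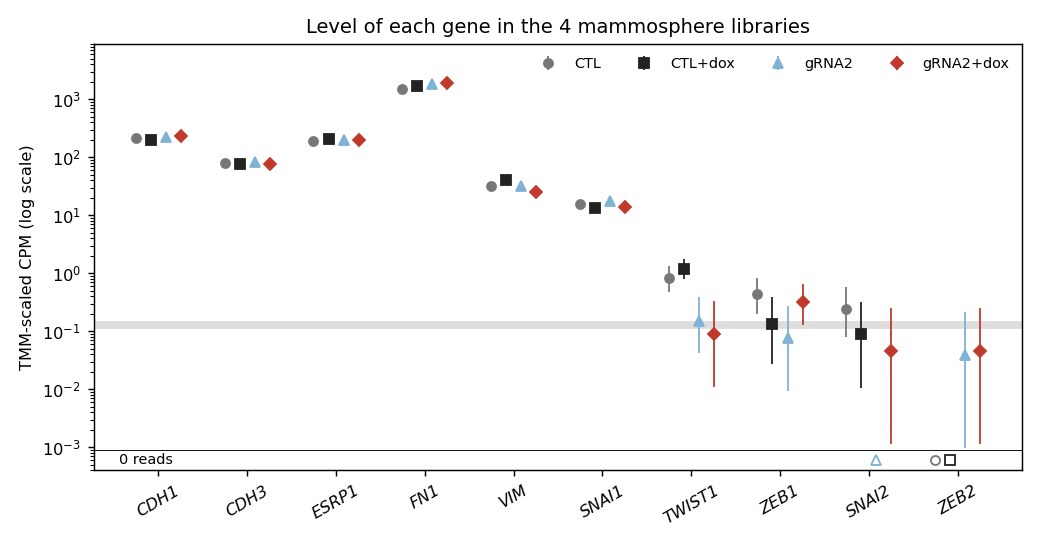
TMM-scaled CPM on a log axis for the 10 genes in the 4 libraries, with exact 95% intervals of the reads as vertical lines; open symbols at the bottom mark 0 reads, and the grey band is the CPM of 3 reads in the 4 libraries. The first 6 genes sit at nearly the same height in every library, while TWIST1 is lower in both gRNA2 libraries and ZEB1, SNAI2 and ZEB2 lie around the band.

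The annotated starts of VIM and FN1 are shown because these are the mesenchymal members that were well expressed, and VIM is the one whose level parted from FN1 in gRNA2+dox. Of the 10 genes, 4 matched the RefSeq promoter table for GRCh38.p14: VIM, FN1, ZEB1 and ZEB2. The 250 bases before the start are given 5′ to 3′ on the strand of the gene, with capitals for matches on either strand to the E-box (CACCTG or CAGGTG), the TATA box (TATAA), the cAMP response element (TGACGTCA) and the GC box (GGGCGG), which may overlap. VIM is on the forward strand at chr10:17227991-17228240 and FN1 on the reverse strand at chr2:215436069-215436318.
VIM: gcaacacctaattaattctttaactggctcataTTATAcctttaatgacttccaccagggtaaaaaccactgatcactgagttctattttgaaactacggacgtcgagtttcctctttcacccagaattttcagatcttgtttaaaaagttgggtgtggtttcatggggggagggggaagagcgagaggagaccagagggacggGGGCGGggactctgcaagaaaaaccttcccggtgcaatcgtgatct
FN1: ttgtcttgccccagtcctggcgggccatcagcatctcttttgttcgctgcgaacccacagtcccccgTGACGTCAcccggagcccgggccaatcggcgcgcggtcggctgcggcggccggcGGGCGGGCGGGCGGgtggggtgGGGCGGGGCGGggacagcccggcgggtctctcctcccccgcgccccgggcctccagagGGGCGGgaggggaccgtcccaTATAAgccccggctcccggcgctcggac

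The FN1 window held 1 TATA box, 28 bases before the start, 1 cAMP response element at 183 bases and 6 GC boxes, with 76.4% G and C. The VIM window held 1 GC box at 46 bases and 1 TATA match at 217 bases, on the other strand, with 46.0% G and C. Neither held the E-box, which is found in the same window of 17.5% of the 35116 promoters in the table. The cAMP response element is in 1.65% of them, the TATA box in 18.9% and the GC box in 42.6%. ZEB1 has 7 starts in the table and ZEB2 1, and 2 of the ZEB1 windows held an E-box, in the first 57 bases before the start and in the third 85 and 242 bases before it. These are matches of letters only.

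A gene was called lower or higher in a comparison where it differed by at least 1.5-fold and its interval lay off 0. In gRNA2+dox against gRNA2, 0 of the 7 genes were lower and 0 were higher by this rule, which called 2.39% of the 15204 genes lower and 1.70% higher. Against CTL+dox, VIM and TWIST1 were lower and none was higher, where 4.18% of all genes were lower and 2.59% higher. Doxycycline in CTL cells called 0 of the 7, with 1.68% of all genes lower and 1.45% higher. Between the pools without doxycycline, TWIST1 was lower in gRNA2 than in CTL and no gene was higher, with 2.52% and 1.55% of all genes. The difference between the doxycycline ratio in gRNA2 cells and that in CTL cells was also computed, and VIM alone of the 7 was called, lower in gRNA2 cells, with 3.14% of all genes lower and 2.40% higher. The comparison gRNA2+dox against gRNA2 shares a library with gRNA2+dox against CTL+dox, and the calls of TWIST1 in the 2 pool comparisons come from separate libraries. TWIST1 passed the filter of 10 reads only through the 2 CTL libraries, where it was high, so its calls are a description of counts that the filter favoured.

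**Figure D2:**
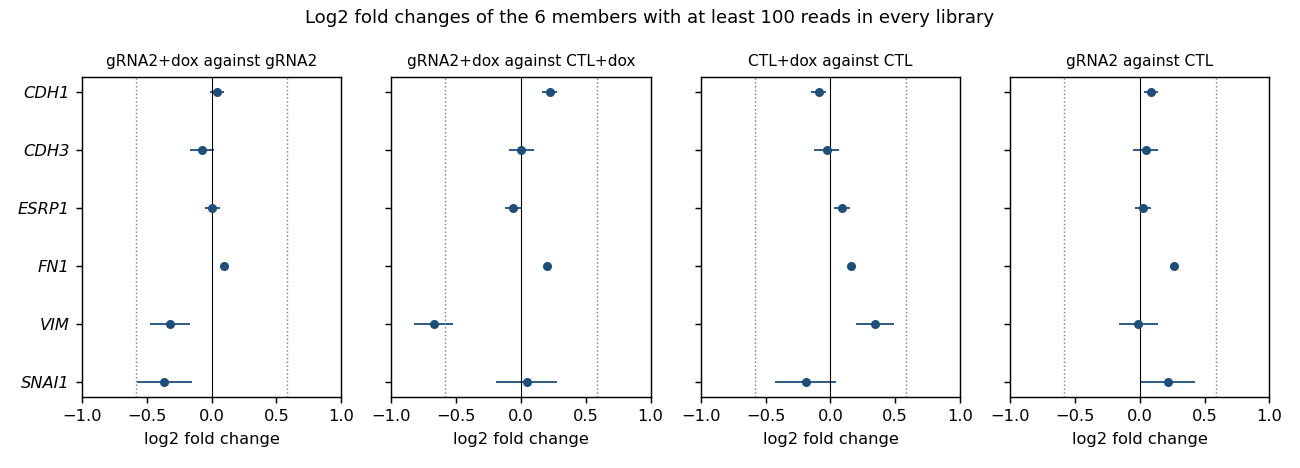
Log2 fold changes (x axis) of CDH1, CDH3, ESRP1, FN1, VIM and SNAI1 in the 4 comparisons, 1 panel each, with exact 95% intervals of the reads as bars (shorter than the point for FN1) and dotted lines at 1.5-fold. Only VIM, in gRNA2+dox against CTL+dox, passes a dotted line, at -0.67.

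The epithelial genes stayed within a narrow band, as most genes did. Of all tested genes, 62.7% to 72.4% were within 0.25 of 0 on the log2 scale in a given comparison. CDH1, which encodes E-cadherin, the adhesion molecule of epithelial adherens junctions, had 4351 reads from CTL, 4505 from CTL+dox, 5885 from gRNA2 and 5091 from gRNA2+dox. This is 213, 199.99, 226 and 233 CPM in that order, so that gRNA2+dox was highest and CTL+dox lowest, 1.17-fold apart. The log2 fold change was 0.05 in gRNA2+dox against gRNA2 (-0.01 to 0.10), where the interval held 0, and 0.22 against CTL+dox (0.16 to 0.28). It was -0.09 for doxycycline in CTL cells (-0.15 to -0.03) and 0.08 between the pools without doxycycline (0.03 to 0.14).

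CDH3, which encodes P-cadherin, the cadherin of basal and myoepithelial cells, lies next to CDH1 on chromosome 16, with 3520 bases between the genes in GRCh38.p14. It had 1625 reads from CTL, 1755 from CTL+dox, 2136 from gRNA2 and 1703 from gRNA2+dox. Its levels of 79.6, 77.9, 82.0 and 78.0 CPM were the closest together of the 10 genes, 1.05-fold from lowest to highest. Its 4 log2 fold changes lay between -0.07 and 0.04, and each interval held 0, with -0.17 as the lowest bound and 0.14 as the highest. Per kilobase, the ratio of CDH3 to CDH1 ran from 0.421 in CTL+dox (0.398 to 0.445) through 0.404 in CTL and 0.392 in gRNA2 to 0.361 in gRNA2+dox (0.342 to 0.382).

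ESRP1 encodes a splicing factor of epithelial cells that holds CD44, FGFR2 and CTNND1 in their epithelial isoforms, which these counts per gene do not resolve. It had 3951 reads from CTL, 4641 from CTL+dox, 5119 from gRNA2 and 4310 from gRNA2+dox, or 193, 206, 197 and 197 CPM. The 4 levels were 1.06-fold apart. The log2 fold change was 0.01 in gRNA2+dox against gRNA2 (-0.05 to 0.06), -0.06 against CTL+dox (-0.12 to -0.002) and 0.09 for doxycycline in CTL cells (0.03 to 0.15). Its paralogue ESRP2 was lower, and ESRP1 exceeded it per kilobase by 5.16 times in CTL, with 6.50, 5.76 and 6.14 times in CTL+dox, gRNA2 and gRNA2+dox. In the ESRP2 ratio the 11.9% to 13.9% of ESRP2 reads that the counting set aside as shared with another gene are left out.

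Among the mesenchymal genes, FN1 and VIM parted. FN1 encodes fibronectin, a glycoprotein of the extracellular matrix whose increase is a common mark of the transition. It had 30649 reads from CTL, 37775 from CTL+dox, 46990 from gRNA2 and 42025 from gRNA2+dox, or 1501, 1677, 1804 and 1924 CPM. CTL was lowest and gRNA2+dox highest, 1.28-fold apart. The log2 fold change was 0.09 in gRNA2+dox against gRNA2 (0.07 to 0.11), 0.20 against CTL+dox (0.18 to 0.22), 0.16 for doxycycline in CTL cells (0.14 to 0.18) and 0.27 between the pools without doxycycline (0.24 to 0.29). All 4 intervals lay above 0 and all 4 values were under 1.5-fold. In these comparisons, 31.0% to 40.3% of all tested genes had an interval off 0. Other ways of scaling the libraries moved some of the FN1 values by more than their counting error. The 2 doxycycline ratios of FN1 differed by -0.07 (-0.10 to -0.04).

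VIM encodes vimentin, the intermediate filament of mesenchymal cells, and had the widest range of the 6 well expressed genes. It had 660 reads from CTL, 922 from CTL+dox, 834 from gRNA2 and 560 from gRNA2+dox. Its levels were 32.3 CPM (29.9 to 34.9) in CTL, 40.9 (38.3 to 43.7) in CTL+dox, 32.0 (29.9 to 34.3) in gRNA2 and 25.6 (23.6 to 27.9) in gRNA2+dox. The pools had like levels without doxycycline, CTL+dox was above both and gRNA2+dox below both, with no overlap of the intervals. Whether this reflects fewer vimentin-expressing cells or less RNA per cell cannot be told apart in bulk RNA, as for every gene here.

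The log2 fold change of VIM was -0.67 in gRNA2+dox against CTL+dox (-0.83 to -0.52), which is 1.60-fold lower. Against gRNA2 it was -0.32 (-0.48 to -0.16), or 1.25-fold lower, under the 1.5-fold of a call. In CTL cells doxycycline gave 0.34 (0.20 to 0.49), and gRNA2 against CTL gave -0.01 (-0.16 to 0.14). The doxycycline ratio of VIM was therefore lower in gRNA2 cells than in CTL cells by 0.66 on the log2 scale (difference -0.66, interval -0.87 to -0.45), and it holds an upward ratio in the control guide cells as well as a downward one in the gRNA2 cells. With an assumed coefficient of variation of 0.2 between cultures, neither value of VIM kept an interval off 0.

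The reads on VIM need a caution of counting. VIM lies at chr10:17228241-17237593 on the forward strand of GRCh38.p14, and its first 1745 bases are shared with VIM-AS1, an antisense gene at chr10:17214239-17229985. The libraries held no strand information, with 49.0% to 49.1% of the stranded reads on the first strand, and reads over both genes were set aside as ambiguous in the counts used. The 2 stranded columns together gave VIM 1244, 1707, 1633 and 971 reads in the order CTL, CTL+dox, gRNA2 and gRNA2+dox. So 584, 785, 799 and 411 reads were set aside, or 46.9%, 46.0%, 48.9% and 42.3% of the sum. None of the other 9 genes lost a read this way.

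After scaling by library size, the set-aside reads on VIM were likewise highest in CTL+dox and lowest in gRNA2+dox, with larger differences for gRNA2+dox. Taken alone, they put gRNA2+dox at -0.70 on the log2 scale against gRNA2 (-0.88 to -0.53), -0.89 against CTL+dox (-1.06 to -0.71) and 0.29 for doxycycline in CTL cells (0.13 to 0.44). The pools without doxycycline differed by 0.10 (-0.05 to 0.26). With both kinds of read summed, VIM was at -0.50 against gRNA2 (-0.61 to -0.38) and -0.77 against CTL+dox (-0.88 to -0.65), and its doxycycline ratios differed by -0.81 (-0.97 to -0.65). Without strand, the set-aside reads cannot be divided between VIM and VIM-AS1. VIM-AS1 itself had 13 to 16 reads outside the overlap in each library. With the summed reads VIM would stand above CDH3 per kilobase in all 4 libraries, at 28.3, 35.2, 29.1 and 20.6 CPM per kilobase.

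**Figure D3:**
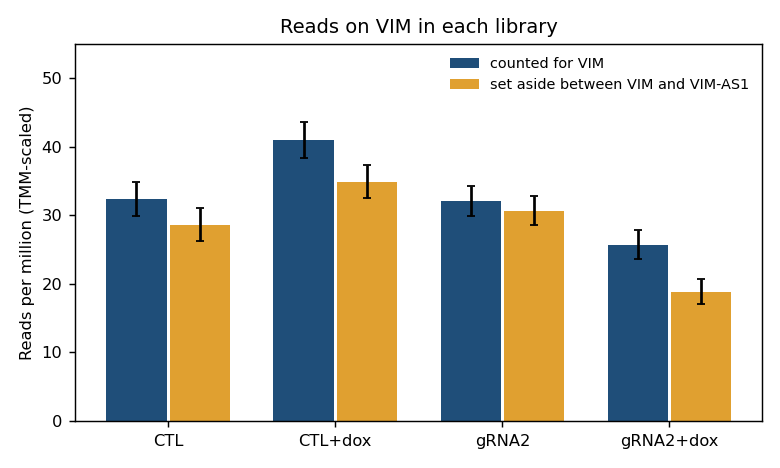
TMM-scaled reads per 1000000 (y axis) counted for VIM (blue) and set aside between VIM and VIM-AS1 (yellow) in each library, with exact 95% intervals of the reads as error bars. Both kinds of read were highest in CTL+dox and lowest in gRNA2+dox, where 560 reads were counted and 411 set aside.

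Within a library, the ratio of VIM to CDH1 per kilobase needs no scaling between libraries. It was 0.339 in CTL (0.312 to 0.368), 0.457 in CTL+dox (0.425 to 0.491), 0.317 in gRNA2 (0.294 to 0.340) and 0.246 in gRNA2+dox (0.225 to 0.268). By the counted reads, E-cadherin RNA thus exceeded vimentin RNA per kilobase by 2.19-fold in CTL+dox and 4.07-fold in gRNA2+dox, the ends of the range. The ratio of FN1 to VIM ran from 10.5 in CTL+dox (9.85 to 11.2) to 19.3 in gRNA2+dox (17.7 to 21.0), with 11.9 in CTL and 14.5 in gRNA2 between them. Both ratios leave out the set-aside VIM reads, 42.3% to 48.9% of the sum. With the summed reads VIM had 35.2 CPM per kilobase in CTL+dox and 20.6 in gRNA2+dox, beside 41.6 and 48.5 for CDH1. The excess of CDH1 and of FN1 over VIM would then be smaller in every library.

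Over the 4 libraries, the 3 genes whose log2 CPM followed that of VIM most closely were TRIM32, NDC80 and LCE3E, of 10531 genes with at least 100 reads in every library. Their log2 CPM, each centred on its own mean, differed from that of VIM by a root mean square of 0.027, 0.028 and 0.035. TRIM32 had 233, 328, 286 and 202 reads in CTL, CTL+dox, gRNA2 and gRNA2+dox. With 4 points, 140 genes were within 0.1 of VIM on this measure.

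Of the transcription factors, only SNAI1 was well expressed. SNAI1 encodes Snail, a zinc finger repressor of CDH1, and had 315 reads from CTL, 304 from CTL+dox, 467 from gRNA2 and 304 from gRNA2+dox. Its levels were 15.4, 13.5, 17.9 and 13.9 CPM, highest in gRNA2 and lower in both libraries with doxycycline. The log2 fold change was -0.36 in gRNA2+dox against gRNA2 (-0.58 to -0.15), which is 1.29-fold lower and under the threshold. It was -0.19 for doxycycline in CTL cells (-0.42 to 0.04), and the 2 doxycycline ratios differed by -0.17 with an interval that held 0 (-0.48 to 0.14). SNAI1 was 0.04 in gRNA2+dox against CTL+dox (-0.19 to 0.28) and 0.22 between the pools without doxycycline (0.01 to 0.43).

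TWIST1, a basic helix-loop-helix factor of mesoderm and of the transition, differed between the pools. It had 17 reads in CTL and 27 in CTL+dox, against 4 in gRNA2 and 2 in gRNA2+dox, or 0.832, 1.20, 0.154 and 0.0916 CPM. Both CTL libraries were above both gRNA2 libraries, and the intervals of CTL (0.485 to 1.33) and gRNA2 (0.0418 to 0.393) did not overlap. The log2 fold change was -2.28 in gRNA2 against CTL (-4.47 to -0.82) and -3.43 in gRNA2+dox against CTL+dox (-6.83 to -1.72). Summed over the 2 libraries of a pool, which are not replicates, the 44 reads of CTL cells and the 6 of gRNA2 cells differed 8.18-fold after scaling. TWIST1 entered the comparisons only through the CTL libraries. These values and intervals therefore describe counts that the filter favoured, and they do not cover variation between cultures or pools. Doxycycline gave 0.51 in CTL cells (-0.40 to 1.49) and -0.63 in gRNA2 cells (-4.21 to 2.06), both with intervals that held 0. TCOF1 itself had a log2 ratio of 0.02 between the pools without doxycycline (-0.10 to 0.14), and its part in the TWIST1 levels was not tested.

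ZEB1, ZEB2 and SNAI2 were at the edge of detection. ZEB1, a zinc finger repressor of epithelial genes, had 9 reads from CTL, 3 from CTL+dox, 2 from gRNA2 and 7 from gRNA2+dox. Its levels of 0.441, 0.133, 0.0768 and 0.321 CPM had wide intervals, and the highest was at most 0.837 CPM (the upper bound in CTL). In CTL, where it was highest, ZEB1 was 597 times below CDH1 per kilobase. SNAI2, which encodes Slug, had 5, 2, 0 and 1 reads in the same order. Its interval in CTL (0.0795 to 0.571 CPM) overlapped that of its 0 reads in gRNA2 (0 to 0.142 CPM). The interval of its log2 ratio of gRNA2 to CTL nevertheless lay below 0, with an upper bound of -0.23. For ZEB1 that log2 ratio was -2.23 (-5.77 to -0.25), and its doxycycline ratios differed by 3.37 (0.65 to 6.09). Both genes stayed below the filter of 10 reads, so these values were not counted as calls. ZEB2 had 0 reads in CTL and in CTL+dox and 1 read in each gRNA2 library. Its 0 of 19960644 and 22467410 reads on genes have exact upper bounds of 0.181 CPM in CTL and 0.164 CPM in CTL+dox (3 reads would be 0.147 and 0.133 CPM), and no difference in ZEB2 was detectable at this depth. TWIST1, ZEB1, SNAI2 and ZEB2 together had 31 reads from CTL, 32 from CTL+dox, 7 from gRNA2 and 11 from gRNA2+dox. Of these, TWIST1 made up 17, 27, 4 and 2 in the same order, and ZEB1 made up 7 of the 11 in gRNA2+dox.

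Summed by role, the 3 epithelial genes CDH1, CDH3 and ESRP1 gave 486, 484, 504 and 508 CPM in the order CTL, CTL+dox, gRNA2 and gRNA2+dox. FN1 and VIM together gave 1533, 1718, 1836 and 1950 CPM, in which FN1 made up nearly all reads. The 5 transcription factors gave 16.9, 14.9, 18.2 and 14.4 CPM, nearly all SNAI1. The median over the 7 tested genes was -0.07 on the log2 scale for gRNA2+dox against gRNA2, beside -0.02 over all tested genes. Against CTL+dox the medians were 0.0012 and 0.00088.

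Of 31 epithelial junction genes, 30 were in the tables and tested, and 0 were lower or higher in each of the 4 comparisons and in the difference of the doxycycline ratios, where 1.45% to 4.18% of all genes were called in a given direction. The median of their log2 ratios was -0.01 for gRNA2+dox against gRNA2 and 0.001 against CTL+dox. Among the junction genes with the highest levels per kilobase in CTL were PERP, a tetraspan protein of desmosomes, with 1587 to 1922 CPM per kilobase over the libraries, and JUP, which encodes plakoglobin, with 296 to 350. For JUP the gRNA2+dox library gave -0.05 against gRNA2 and 0.19 against CTL+dox. The 12 splicing regulators of epithelial and mesenchymal isoforms, ESRP1 among them, had 0 calls in every comparison. Of the others, MBNL2, PTBP1 and HNRNPM stood highest, with levels of 110 to 127, 90.2 to 106 and 48.9 to 51.4 CPM per kilobase.

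The 30 epithelial regulators and polarity genes held 2 that were called, both lower against CTL+dox, or 6.67% beside 4.18% of all genes. ELF5, a transcription factor of luminal progenitors and alveolar cells of the breast, had 151 reads from CTL, 216 from CTL+dox, 59 from gRNA2 and 39 from gRNA2+dox. Like TWIST1, it was lower in both gRNA2 libraries than in both CTL libraries, with a log2 fold change of -1.70 in gRNA2 against CTL (-2.17 to -1.26) and -2.41 in gRNA2+dox against CTL+dox (-2.96 to -1.93). Its doxycycline ratio was lower in gRNA2 cells (difference -0.71, interval -1.37 to -0.06). MAL2, a membrane protein of apical transport, had 3880, 4933, 4338 and 3121 reads and was lower in gRNA2+dox than in CTL+dox at -0.62 (-0.68 to -0.55). The protease PRSS8 and its inhibitors SPINT1 and SPINT2, the highest of the list, were not called, with -0.15 to 0.04 against gRNA2.

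Of 22 transcription factors of the transition, 14 were tested, and 6 to 8 had at most 3 reads in a given library. Against CTL+dox, 2 were lower, TWIST1 and TWIST2, or 14.3% beside 4.18% of all genes. TWIST1 was favoured by the filter, as described above, and it alone was lower in gRNA2 against CTL (7.14% beside 2.52%). In the difference of the doxycycline ratios FOXQ1 alone was called, as higher (7.14% beside 2.40%). TWIST2, the paralogue of TWIST1, had 141 reads from CTL, 168 from CTL+dox, 129 from gRNA2 and 103 from gRNA2+dox. It was lower in gRNA2+dox than in CTL+dox at -0.66 (-1.03 to -0.30), with -0.48 in gRNA2 against CTL (-0.84 to -0.12), under the threshold. FOXQ1, a forkhead factor, had 6403, 5809, 7079 and 7371 reads, and its doxycycline ratio was higher in gRNA2 cells by 0.59 (0.52 to 0.66), with 0.31 in gRNA2 cells and -0.28 in CTL cells. That difference was only just past the 1.5-fold of a call. SOX9 stood highest of the factors per kilobase with 257 to 306 CPM per kilobase, followed by FOXQ1 with 96.9 to 127 and FOXC1 with 39.6 to 47.1.

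**Figure D4:**
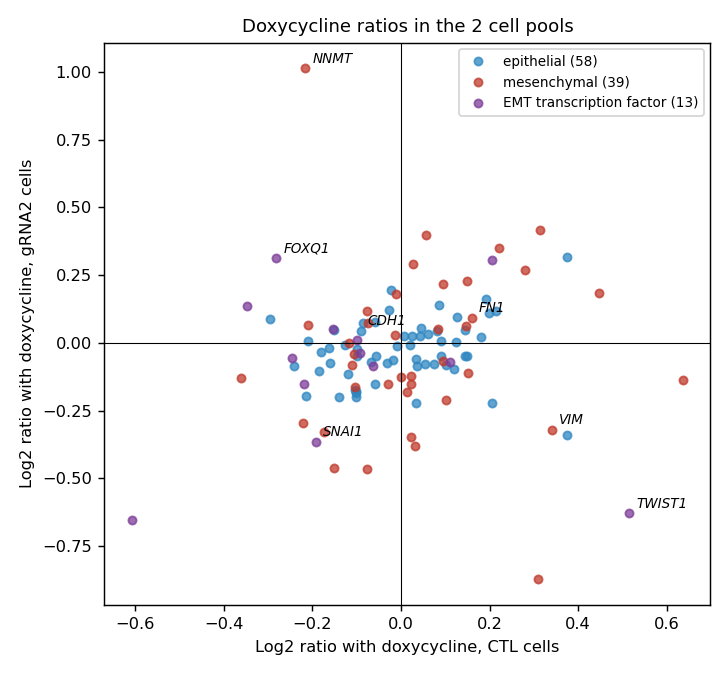
Log2 ratio with to without doxycycline in CTL cells (x axis) and in gRNA2 cells (y axis), with no library shared between the axes, for genes of the epithelial, mesenchymal and transcription factor lists with at least 50 reads in at least 1 library, and TWIST1. VIM (0.34, -0.32) lies in the lower right part of the plot, and CDH1 and FN1 lie near the centre.

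The mesenchymal lists held calls in both directions. Of 32 matrix genes, 24 were tested, with 1 lower and 1 higher in gRNA2+dox against gRNA2, and 2 lower and 3 higher against CTL+dox, where the background over all genes was 2.39% and 1.70%, and 4.18% and 2.59%. FBN1, which encodes fibrillin, had 91, 86, 44 and 30 reads and was lower in both pool comparisons, at -1.39 without doxycycline (-1.95 to -0.86) and -1.46 with it (-2.13 to -0.86). TNC, which encodes tenascin C, had 5474, 6280, 9551 and 10551 reads and was higher in the comparison of gRNA2+dox with CTL+dox at 0.79 (0.75 to 0.84). It had 0.40 against gRNA2, and 0.45 between the pools without doxycycline (0.40 to 0.50), under the threshold. COL6A1 had 29, 50, 88 and 67 reads and was higher in gRNA2 than in CTL at 1.24 (0.63 to 1.91).

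Further matrix calls came from low counts, and these genes are named after their values were seen. COL6A2 had 12, 14, 20 and 31 reads and was higher in gRNA2+dox against both gRNA2 and CTL+dox, at 0.87 (0.03 to 1.77) and 1.16 (0.24 to 2.22). COL4A1 had 15, 12, 23 and 25 reads and was higher against CTL+dox at 1.07 (0.06 to 2.23). FBLN1 and TGFBI, among the highest of this list beside FN1, were not called in any comparison; TGFBI had 0.45 for doxycycline in CTL cells (0.38 to 0.51).

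Of 34 mesenchymal cytoskeleton, surface and protease genes, 28 were tested, with 0 lower and 3 higher in gRNA2+dox against gRNA2 and, VIM included, 4 lower and 2 higher against CTL+dox. That is 10.7% higher against gRNA2, and 14.3% lower and 7.14% higher against CTL+dox, beside 1.70%, 4.18% and 2.59% of all genes. The 10.7% includes CDH11, which entered the comparisons only through gRNA2+dox, the library in which it was counted as higher. The filter on counts therefore favoured this share, which is a description only. NNMT, nicotinamide N-methyltransferase, had 38, 36, 57 and 97 reads and was higher in gRNA2+dox at 1.01 against gRNA2 (0.53 to 1.52) and 1.46 against CTL+dox (0.91 to 2.07). TPM2, a tropomyosin, had 136, 135, 89 and 54 reads and was lower in both pool comparisons, at -0.96 without doxycycline (-1.36 to -0.57) and -1.27 with it (-1.76 to -0.81). PDGFRA, a growth factor receptor of mesenchymal cells and one of the fibroblast markers above, had 35, 47, 87 and 88 reads and was higher in both, at 0.95 (0.38 to 1.57) and 0.94 (0.42 to 1.49). MMP2, a matrix protease, had 65, 68, 71 and 43 reads, with -0.61 against CTL+dox (-1.20 to -0.04). CD44, S100A4 and PLAUR, the highest of the list, had levels of 297 to 365, 232 to 323 and 191 to 220 CPM per kilobase and were not called. The level of S100A4 leaves out the 20.1% to 24.3% of its reads that the counting set aside as shared with another gene.

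CDH2, which encodes N-cadherin, the cadherin that takes the place of E-cadherin in the transition, is named after its values were seen. It had 15 reads from CTL, 32 from CTL+dox, 18 from gRNA2 and 7 from gRNA2+dox, highest and lowest in the same libraries as VIM but with few reads. It was higher with doxycycline in CTL cells at 0.93 (0.03 to 1.94), lower in gRNA2+dox than in CTL+dox at -2.07 (-3.57 to -0.94), and its doxycycline ratios differed by -1.99 (-3.49 to -0.49). ITGB3 had 15, 22, 17 and 28 reads and was higher in gRNA2+dox than in gRNA2 at 0.95 (0.05 to 1.94). CDH11 had 9, 7, 4 and 12 reads and entered the comparisons only through gRNA2+dox, the library in which it was counted as higher, with 1.70 against gRNA2 (0.12 to 3.93).

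**Figure D5:**
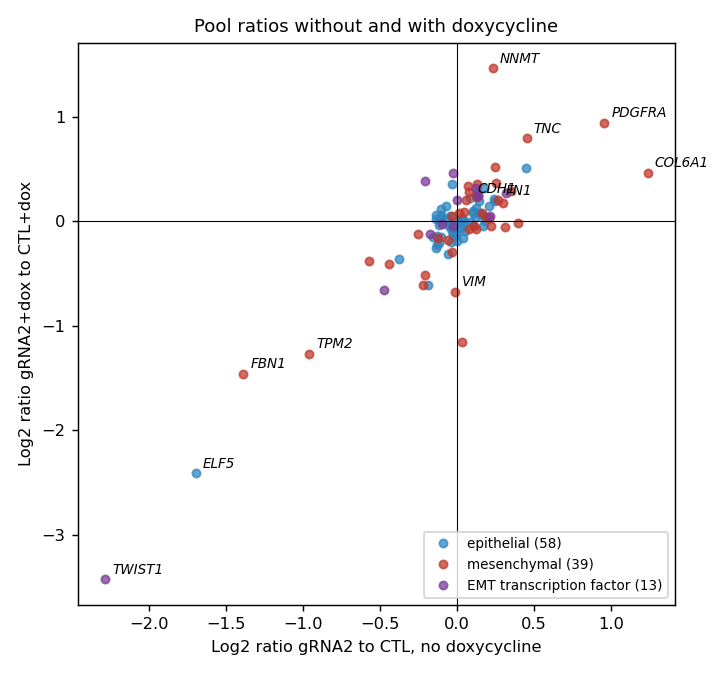
Log2 ratio of gRNA2 to CTL cells without doxycycline (x axis) and with it (y axis), with no library shared between the axes, for the same genes of the 3 kinds of list. TWIST1 (-2.28, -3.43) and ELF5 (-1.70, -2.41) lie at the lower left, VIM (-0.01, -0.67) lies below the centre, and CDH1 and FN1 lie close to it.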

How the data were processed

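The data are 4 RNA-seq libraries of MDA-MB-468 mammospheres, 1 a condition. The authors removed adaptors with fastp, mapped the reads with STAR and deposited its raw counts per gene, without normalization. The submitters' processing notes name hg38, and the annotation is not given in the sources used here. Reads that map to several places are not in STAR's counts.

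The unstranded counts were used. Library sizes were scaled by TMM over the whole table (edgeR 4.0.16, R 4.3.3; factors 0.985 to 1.02). Log2 fold changes had 0.5 added as a prior count, in proportion to library size, for the 15204 of 26475 genes that reached 10 counts in any library. Clopper-Pearson 95% intervals for each pair of libraries and exact Poisson intervals of a level, were computed with scipy 1.17.1 in Python 3.11.15. The difference of the doxycycline ratios has a normal interval from counting error. A call needed 1.5-fold and an interval off 0. No replicate exists, so there is no test across samples and no p-value. Depth was 19960644 to 26322847 reads on genes, so that 3 reads are 0.115 to 0.147 CPM.

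Positions are those of RefSeq for GRCh38.p14. Lengths are those of the canonical transcripts of GENCODE 44 lifted to GRCh37, found by symbol for 90.8% of the tested genes. Of the list symbols, NECTIN1, PATJ and TBXT were read under older symbols, and NECTIN4 was not matched.

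The genes, lists and tests were chosen with earlier results of these data known. Other list genes are named where they were called and reached 50 counts in any library, or were among the 3 highest per kilobase in CTL. Some of these genes are not reported here. Genes like VIM are the 3 nearest by root mean square. The alternatives tried were size factors of DESeq2 1.42.0, totals only, a prior count of 5, no filter, a filter of 50 counts, the sum of the stranded columns, a fold of 2, the fold alone and an assumed coefficient of variation of 0.2. The set-aside VIM reads alone and TMM factors from genes with at least 10 counts were added after seeing the data.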

Additional observations from a re-analysis of the deposited data

How the results depend on the processing

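The calls of TWIST1 rest on few reads and those of VIM on a fold near the threshold. With at least 50 counts TWIST1 was not tested, which left 1 gene lower in gRNA2+dox against CTL+dox (VIM) and 0 in gRNA2 against CTL. Without a filter on counts, 3 genes were lower in gRNA2 against CTL (ZEB1, SNAI2 and TWIST1) and 1 had a higher doxycycline ratio in gRNA2 cells (ZEB1), with at most 9 reads each for ZEB1 and SNAI2. At a fold of 2, and likewise with an assumed coefficient of variation of 0.2, 1 gene was lower in gRNA2+dox against CTL+dox (TWIST1) and 0 in the difference of the doxycycline ratios. By the fold of 1.5 alone, 1 gene was lower in gRNA2+dox against gRNA2 (TWIST1) and 2 in the difference of the ratios (VIM and TWIST1). DESeq2 size factors, total counts, a prior count of 5, the summed stranded columns and the TMM factors from filtered genes left these counts of members as they were, but the prior count of 5 brought TWIST1 to -2.19 against CTL+dox and -1.49 in gRNA2 against CTL. Of 240 values of single genes under 7 alternatives, 234 moved by less than their counting error, 6 moved by more (5 of FN1 and VIM in gRNA2+dox against gRNA2, at -0.50 with the strands summed) and 0 called values changed sign. Over all genes, the lower calls in gRNA2+dox against CTL+dox numbered 636, and 320 at a fold of 2, 1101 by the fold alone, 409 with at least 50 counts and 273 with the assumed variation. No paired analysis was possible because there are no replicates, and no library could be left out.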
